A study of Mus musculus with 12 samples.

Results

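Of the 55401 genes in an RNA sequencing table of mouse dermis, 9 named for their use as T cell markers are described here: Cd3d, Cd3e, Cd3g, Cd247, Cd2, Lck, Cd4, Cd8a and Foxp3. They were taken by mouse gene symbol. The 12 libraries came from C57BL/6 mice aged 6 weeks in 4 groups of 3 biological replicates. The groups were wild type (WT) and Cthrc1-/- on day 0 and on day 7 of a wounding experiment. Cthrc1 encodes a secreted collagen triple helix repeat protein. How it was deleted, the sex of the mice and whether animals were pooled are not given in the sources used here, so p-values measure the spread between these replicates.

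T cells recognise antigen through a receptor of paired alpha and beta or gamma and delta chains that cannot signal alone. The receptor sits in a complex with the CD3 chains delta, epsilon and gamma and the zeta chain (Cd247), whose tails are phosphorylated by the kinase Lck. Lck is carried to the complex by the coreceptors CD4 and CD8, while CD2 strengthens adhesion to the partner cell and Foxp3 directs the programme of regulatory T cells. Mouse skin holds gamma delta T cells, many of them in the epidermis, together with alpha beta T cells, and regulatory T cells gather near hair follicles. Several of the markers are not confined to T cells: natural killer cells carry Cd247, Cd2 and Lck, and subsets of mouse dendritic cells carry Cd4 or Cd8a.

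On the GRCm38 assembly with GENCODE M21, all members are protein-coding. Cd3g (ENSMUSG00000002033, chromosome 9, 44969572 to 44980431, minus strand), Cd3d (ENSMUSG00000032094, chromosome 9, 44981786 to 44987339, plus strand) and Cd3e (ENSMUSG00000032093, chromosome 9, 44998740 to 45009627, minus strand) form a cluster. Cd247 (ENSMUSG00000005763) lies on chromosome 1 from 165788681 to 165877277, plus strand. Cd2 (ENSMUSG00000027863) lies on chromosome 3 from 101275899 to 101287939, minus strand, and Lck (ENSMUSG00000000409) on chromosome 4 from 129548344 to 129573641, minus strand. Cd4 (ENSMUSG00000023274, 124864692 to 124888221, minus strand) and Cd8a (ENSMUSG00000053977, 71373427 to 71379173, plus strand) are both on chromosome 6. Foxp3 (ENSMUSG00000039521) lies on chromosome X from 7573644 to 7595245, plus strand.

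Promoter sequence from RefSeq (GRCm38.p6) is shown for the 4 signalling chains, because their levels moved together over the libraries, and for Foxp3, because it was the member that passed the test between days. Cd3g and Cd3d are transcribed away from each other from starts 1355 bases apart, so their windows lie on either side of 1 short interval. Each sequence is given 5′ to 3′ on the gene's own strand and ends just before the first annotated exon in the window. Capitals mark a match, on either strand, to GGAAGT, a core letter string of ETS factors, TGTGGT, one of RUNX factors, or TATAAA, the TATA box. The 3 strings do not overlap one another in these windows.
Cd3g, chr9:44980432-44980681, minus strand: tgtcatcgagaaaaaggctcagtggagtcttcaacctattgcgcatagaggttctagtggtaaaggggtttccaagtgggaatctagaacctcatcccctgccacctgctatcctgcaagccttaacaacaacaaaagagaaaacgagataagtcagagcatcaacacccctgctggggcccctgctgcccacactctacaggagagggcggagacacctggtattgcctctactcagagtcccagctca
Cd3d, chr9:44981536-44981785, plus strand: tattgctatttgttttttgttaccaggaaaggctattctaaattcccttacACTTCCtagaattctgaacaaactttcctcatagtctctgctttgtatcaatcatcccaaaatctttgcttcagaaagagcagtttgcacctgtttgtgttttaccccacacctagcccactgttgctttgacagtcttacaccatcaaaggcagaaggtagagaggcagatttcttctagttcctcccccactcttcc
Cd3e, chr9:45009628-45009861, minus strand: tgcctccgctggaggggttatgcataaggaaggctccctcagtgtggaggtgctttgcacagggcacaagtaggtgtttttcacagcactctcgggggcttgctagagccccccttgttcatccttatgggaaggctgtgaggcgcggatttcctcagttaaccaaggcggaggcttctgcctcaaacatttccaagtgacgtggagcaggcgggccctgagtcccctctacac
Cd247, chr1:165788431-165788680, plus strand: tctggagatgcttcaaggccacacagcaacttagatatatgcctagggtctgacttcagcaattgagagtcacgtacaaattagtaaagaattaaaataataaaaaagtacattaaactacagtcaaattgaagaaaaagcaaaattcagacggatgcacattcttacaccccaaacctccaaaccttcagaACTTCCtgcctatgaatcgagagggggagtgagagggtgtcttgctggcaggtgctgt
Foxp3, chrX:7579426-7579566, plus strand: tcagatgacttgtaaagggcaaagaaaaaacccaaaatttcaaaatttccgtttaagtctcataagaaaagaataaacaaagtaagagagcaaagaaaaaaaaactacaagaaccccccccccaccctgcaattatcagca
The windows of Cd3d and Cd247 each held 1 match to GGAAGT, read as its reverse complement on the printed strand. No match to any of the 3 strings was present in the windows of Cd3g, Cd3e or Foxp3. Among the 32851 promoter windows of all genes, cut to 250 bases, 19.7% held GGAAGT, 14.0% TGTGGT and 12.4% TATAAA. At the 141 bases of the Foxp3 window the shares were 9.91%, 8.27% and 6.93%. Of the 9 members, 7 had an entry in the promoter table, and the 2 without were Cd2 and Cd4.

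Total counts ran from 48329668 to 76938132 per library, so that 3 counts corresponded to between 0.0390 and 0.0621 CPM (counts scaled to the library total), a limit that covers counting error only. In the Cthrc1-/- libraries Cthrc1 was between 0 and 0.15 FPKM (fragments per kilobase, relative to library size), and in the WT libraries between 21.1 and 106 FPKM. The tissue label was read against markers: the 5 fibroblast genes summed to between 270 and 5230 FPKM over all libraries, and the 5 keratinocyte genes to between 2238 and 9225 FPKM, so that epidermal transcripts were abundant in tissue labelled dermis. The 6 hair follicle genes summed to at most 7.22 FPKM in WT day 0 and to between 209 and 10820 FPKM in the Cthrc1-/- day 0 libraries. Of the 6 genes of lymph node stroma, Cr2 was at 0 counts in all 12 libraries, while Ccl21a was between 15.4 and 146 FPKM, and the 6 summed to 19.6 to 151 FPKM. The 6 B cell genes summed to 1.32 to 1.52 FPKM in WT day 0, 2.28 to 2.56 FPKM in WT day 7, 0.936 to 3.56 FPKM in Cthrc1-/- day 0 and 2.03 to 3.08 FPKM in Cthrc1-/- day 7, with Ms4a1 at no more than 8 counts and Blk at up to 264. The part of lymph node or B cell transcripts in the T cell values was not tested. Within their groups, WT day 7 replicate 1 stood apart by its neutrophil genes and Cthrc1-/- day 0 replicate 3 by its hair follicle and fibroblast genes. The calls are also given without both. Other libraries stood apart as well. The hair follicle sum was low in Cthrc1-/- day 0 replicate 1, at 209 FPKM. In Cthrc1-/- day 7 replicate 2 it was 466 FPKM, against 3504 and 4956 FPKM in replicates 1 and 3.

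All 9 members were low. Their mean levels per group ran from 0.0414 FPKM for Foxp3 in WT day 0 to 2.83 FPKM for Cd3g in the same group. Cd3g was the highest member in all 4 groups by mean FPKM, and Cd8a and Foxp3 were the lowest pair in each. In WT day 0 the order by mean FPKM was Cd3g, Cd3d, Cd2, Lck, Cd247, Cd4, Cd3e, Cd8a and Foxp3. There the replicates of Cd3g stood clear of Cd3d, those of Cd247 stood clear of Cd4, and those of Cd3e stood clear of Cd8a, while all other neighbours overlapped. In WT day 7 the order was Cd3g, Lck, Cd4, Cd3d, Cd2, Cd247, Cd3e, Foxp3 and Cd8a, and every neighbouring pair overlapped. Cd4 stood seventh of 9 in Cthrc1-/- day 0 and the third in Cthrc1-/- day 7. In bulk tissue a lower level can mean fewer cells of a type or less RNA per cell, and the counts cannot tell these apart.

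**Figure D1:**
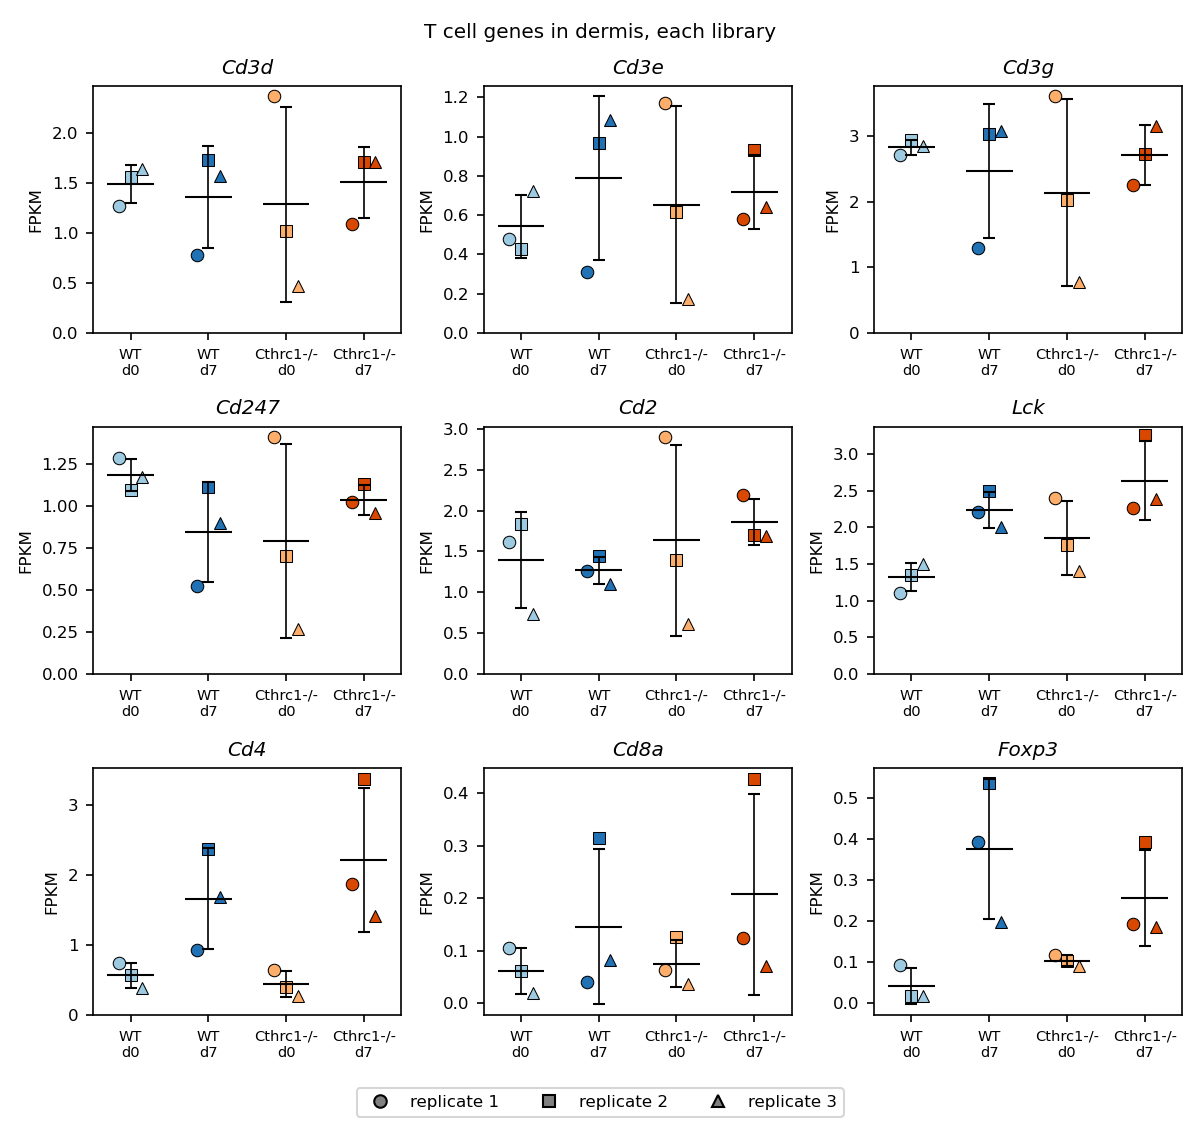
FPKM of each T cell gene in each of the 12 libraries (y axis, linear, separate for each gene) by genotype and day (x axis), with circles, squares and triangles for replicates 1, 2 and 3, and horizontal and vertical bars for the group mean and SD (n = 3). Cd4 lies between 0.384 and 0.745 FPKM in WT day 0 and between 0.927 and 2.36 FPKM in WT day 7, while Cd3d, Cd3g and Cd247 spread most widely in Cthrc1-/- day 0.

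The first question was whether T cell transcripts differed between day 0 and day 7 within each genotype. In WT dermis 1 of the 9 members, Foxp3, rose on day 7 in edgeR's quasi-likelihood test (Benjamini-Hochberg adjusted p under 0.05 over 21338 genes). None fell. Over all genes tested, 8.88% were called, 4.16% as higher on day 7. With scaling to total counts in place of TMM (trimmed mean of M values) the calls over all genes split into 1554 higher and 593 lower, against 888 and 1007. Groups that did not overlap, with every day 7 replicate above every day 0 replicate, were found for 3 members, Foxp3, Cd4 and Lck, where 25.2% of all genes tested showed this. In Cthrc1-/- dermis no member was called by edgeR, with 1.27% of all genes called. In edgeR 1 member (Cd4) was under an unadjusted p of 0.05, beside 3441 of all 21338 genes. DESeq2 and limma also called 1 member. Over all genes DESeq2 called 1757, and limma 691 on log2(FPKM + 1) and 828 on log2(FPKM + 0.1). There the replicates of 2 members, Cd4 and Foxp3, were all higher on day 7, as for 20.5% of all genes tested. The median log2 change of the 9 members was 0.32 in WT and 0.18 in Cthrc1-/-, beside 0.0039 and 1.2e-05 over all genes tested.

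The CD3 chains came first, as the core of the receptor complex. Cd3g, the gamma chain, was 2.71, 2.94 and 2.85 FPKM in the WT day 0 replicates 1 to 3 and 1.29, 3.04 and 3.09 FPKM in WT day 7. In Cthrc1-/- it was 3.62, 2.02 and 0.778 FPKM on day 0 and 2.25, 2.73 and 3.15 FPKM on day 7. Day 7 values lay on both sides of day 0 values in either genotype, with WT day 7 replicate 1 and Cthrc1-/- day 0 replicate 3 as the low libraries. The log2 change from day 0 to day 7 was -0.40 ± 0.47 (SE) in WT (edgeR adjusted p = 0.631) and 0.14 ± 0.47 in Cthrc1-/- (edgeR adjusted p = 0.927).

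Cd3d, the delta chain, followed the same libraries. It was 1.28, 1.56 and 1.65 FPKM in WT day 0 and 0.784, 1.74 and 1.57 FPKM in WT day 7. In Cthrc1-/- it was 2.37, 1.03 and 0.469 FPKM on day 0 and 1.09, 1.72 and 1.72 FPKM on day 7. Its log2 change between days was -0.33 ± 0.52 in WT and 0.021 ± 0.52 in Cthrc1-/- (SE, edgeR adjusted p = 0.731 and 0.992). Both intervals of 1 SE on either side of the change held values above and below 0.

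Cd3e, the epsilon chain that pairs with the other CD3 chains, was 0.476, 0.426 and 0.725 FPKM in WT day 0 and 0.311, 0.970 and 1.08 FPKM in WT day 7. In Cthrc1-/- its levels were 1.17, 0.614 and 0.172 FPKM on day 0 and 0.579, 0.933 and 0.644 FPKM on day 7. The log2 changes between days were 0.32 ± 0.61 in WT and -0.069 ± 0.61 in Cthrc1-/- (SE, edgeR adjusted p = 0.782 and 0.977). With total-count scaling the second became 0.15, and neither was called. The groups overlapped in both genotypes.

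Cd247, the zeta chain, was 1.28, 1.09 and 1.17 FPKM in WT day 0 and 0.525, 1.11 and 0.899 FPKM in WT day 7. Its Cthrc1-/- levels were 1.41, 0.701 and 0.266 FPKM on day 0 and 1.02, 1.13 and 0.957 FPKM on day 7. Here too the lowest values of each set were in WT day 7 replicate 1 and Cthrc1-/- day 0 replicate 3. The log2 change was -0.68 ± 0.49 in WT (SE, edgeR adjusted p = 0.396) and 0.18 ± 0.49 in Cthrc1-/- (edgeR adjusted p = 0.900). Cd247 overlaps the gene Pou2f1 on the opposite strand, at 83 to 1863 counts per library against 76 to 545 for Cd247, and whether the counting used strand is not given in the sources used here.

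Cd2, the adhesion receptor, differed among replicates more than between days. It was 1.62, 1.84 and 0.735 FPKM in WT day 0 and 1.26, 1.44 and 1.11 FPKM in WT day 7. Cthrc1-/- day 0 had 2.90, 1.39 and 0.607 FPKM, and Cthrc1-/- day 7 had 2.19, 1.71 and 1.69 FPKM. The log2 change was -0.29 ± 0.52 in WT and -0.022 ± 0.52 in Cthrc1-/- (SE, edgeR adjusted p = 0.764 and 0.992). The second was 0.19 with total-count scaling, again without a call.

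Lck, the kinase that starts receptor signalling, was 1.11, 1.35 and 1.50 FPKM in WT day 0 and 2.21, 2.50 and 2.01 FPKM in WT day 7. All 3 WT day 7 replicates stood above all 3 of day 0. The log2 change was 0.59 ± 0.27 (SE), a 1.50-fold difference that did not pass after adjustment (edgeR adjusted p = 0.175). In Cthrc1-/- the values were 2.40, 1.76 and 1.40 FPKM on day 0 and 2.26, 3.26 and 2.39 FPKM on day 7, with replicate 1 of day 0 inside the range of day 7. The change there was 0.32 ± 0.26 (SE, edgeR adjusted p = 0.603).

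Cd4, the coreceptor of helper and regulatory T cells, showed the largest difference between days in Cthrc1-/- among the 9 members. In WT it was 0.745, 0.576 and 0.384 FPKM on day 0 and 0.927, 2.36 and 1.69 FPKM on day 7. In Cthrc1-/- it was 0.645, 0.401 and 0.276 FPKM on day 0 and 1.86, 3.37 and 1.41 FPKM on day 7. No day 7 replicate of either genotype overlapped a day 0 replicate. The log2 change was 1.34 ± 0.46 (SE) in WT, 2.54-fold, and 2.13 ± 0.47 in Cthrc1-/-, 4.38-fold, and neither passed the threshold in edgeR (adjusted p = 0.0903 and 0.0609).

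Those Cd4 values sat near the threshold, and the method decided the call. DESeq2 called Cd4 in WT (adjusted p = 0.0196) and in Cthrc1-/- (adjusted p = 0.000312). In Cthrc1-/- it was also called by limma on log2(FPKM + 1) (adjusted p = 0.0399) and by edgeR with total-count scaling (adjusted p = 0.0319). Without WT day 7 replicate 1, which enters this comparison through the shared estimate of spread, edgeR gave an adjusted p of 0.0261 in Cthrc1-/-. Other fits moved away from a call. Leaving out 1 library at a time gave edgeR adjusted p values from 0.0261 to 0.189 in Cthrc1-/-. In WT they ran from 0.0609 to 0.240, without a call.

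Cd8a, the coreceptor of cytotoxic T cells, had 4 to 121 counts per library, and its lowest libraries were close to the limit of counting. It was 0.106, 0.0606 and 0.0192 FPKM in WT day 0, from 23, 19 and 4 counts, and 0.0409, 0.314 and 0.0832 FPKM in WT day 7. In Cthrc1-/- it was 0.0641, 0.126 and 0.0370 FPKM on day 0 and 0.124, 0.426 and 0.0707 FPKM on day 7. Replicate 2 was the highest library in both day 7 groups, and the days overlapped in both genotypes. The log2 change was 1.04 ± 0.93 in WT and 1.24 ± 0.92 in Cthrc1-/- (SE, edgeR adjusted p = 0.505 and 0.558), and neither was called.

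Foxp3, the factor of regulatory T cells, was 0.0922, 0.0166 and 0.0154 FPKM in WT day 0, from 25, 7 and 4 counts. In WT day 7 it was 0.392, 0.538 and 0.197 FPKM, from 124, 188 and 64 counts. Every WT day 7 replicate held more than the highest of day 0. The log2 change of 2.99 ± 0.72 (SE) corresponded to 7.94-fold, with an edgeR adjusted p of 0.0318.

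In Cthrc1-/- Foxp3 was 0.117, 0.101 and 0.0901 FPKM on day 0, from 39, 29 and 22 counts. On day 7 it was 0.192, 0.392 and 0.185 FPKM, from 70, 139 and 59 counts. These groups also did not overlap, but the change of 1.13 ± 0.67 on the log2 scale (SE, 2.18-fold) did not pass (edgeR adjusted p = 0.448). The difference between the genotypes' changes was -1.86 ± 0.96 (SE, edgeR interaction, unadjusted p = 0.0786, adjusted p = 0.428).

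The WT call of Foxp3 did not hold in every fit. It was lost when WT day 0 replicate 2 or replicate 3 was left out (adjusted p = 0.104 for either), when WT day 7 replicate 1 (0.0569) or replicate 2 (0.0797) was left out, and when only the 6 WT libraries were fitted (0.0807). The fitted log2 change stayed between 2.60 and 3.01 in these fits. In those without 1 library, in the same order, calls over all genes were 534, 486, 1209 and 833, against 1895. Foxp3 also overlaps Ccdc22, Ppp1r3f and Gm36995 on the opposite strand, at 926 to 1999, 26 to 299 and 59 to 461 counts per library. Flicr overlaps it on the same strand, at 0 to 10 counts in WT day 0 and 7 to 26 in WT day 7. How reads in the overlaps were assigned is not given in the sources used here. Ccdc22 ranged from 926 to 1388 counts in WT day 0 and from 1229 to 1798 in WT day 7. The part of these genes in the Foxp3 values was not tested.

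**Figure D2:**
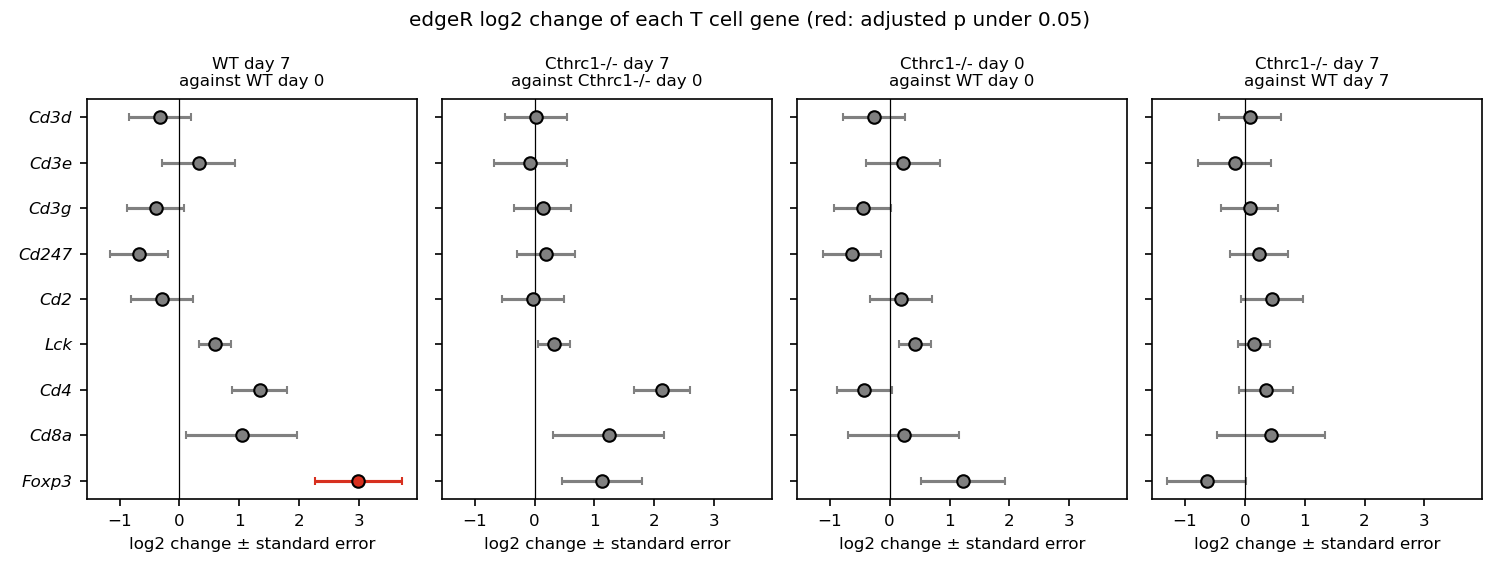
log2 change of each T cell gene (x axis, edgeR) with its standard error as horizontal bars, in 4 comparisons of 3 against 3 libraries, genes on the y axis. Foxp3 in WT day 7 against WT day 0, at 2.99 ± 0.72, is the single red point, and Cd4 in Cthrc1-/- day 7 against day 0, at 2.13 ± 0.47, is the next largest.

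The second question was whether the genotypes differed on the same day. On day 0 no member was called between Cthrc1-/- and WT by edgeR, DESeq2 or limma. EdgeR called 2.42% of all genes tested. None of the members was under an unadjusted edgeR p of 0.05, beside 5193 of all 21338 genes. No member had groups that did not overlap, where 35.6% of all genes tested did. The log2 changes (Cthrc1-/- against WT) ran from -0.62 ± 0.49 for Cd247 to 1.23 ± 0.70 for Foxp3 (SE). Foxp3 came nearest to a separation, at 0.0901 to 0.117 FPKM in Cthrc1-/- against 0.0154 to 0.0922 FPKM in WT (edgeR adjusted p = 0.306). The remaining changes were between -0.45 for Cd3g and 0.42 for Lck.

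On day 7 no member was called either, by edgeR, DESeq2 or limma, none had an unadjusted p under 0.05, and every edgeR adjusted p was 1. Of all genes tested, 0.0141% were called by edgeR, and 1086 of 21338 were under an unadjusted p of 0.05. Changes ran from -0.64 ± 0.66 for Foxp3 to 0.45 ± 0.52 for Cd2 (SE). Cd2 was the member whose groups did not overlap, at 1.69 to 2.19 FPKM in Cthrc1-/- and 1.11 to 1.44 FPKM in WT, and 6.79% of all genes tested were separated in that direction. Standard errors between 0.26 for Lck and 0.90 for Cd8a on the log2 scale set what could be seen.

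The third question, whether the change from day 0 to day 7 differed between genotypes, was tested by the interaction of genotype and day. No member was called by edgeR, DESeq2 or limma, and none was under an unadjusted p of 0.05. Over all genes tested, edgeR called 0.00469%, and 2846 of 21338 were under an unadjusted p of 0.05. Besides Foxp3, the interaction terms ran from -0.39 ± 0.87 for Cd3e to 0.86 ± 0.69 for Cd247 (SE). For Cd4 the term was 0.79 ± 0.64 (edgeR adjusted p = 0.612). A difference between genotypes in the Cd4 change was therefore not shown.

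The spread within groups was uneven, and 3 libraries stood apart in these genes. The sum of Cd3d, Cd3e and Cd3g was 7.16, 3.66 and 1.42 FPKM in the Cthrc1-/- day 0 replicates 1 to 3, and between 4.46 and 5.23 FPKM in WT day 0. In the same order of replicates, the 6 hair follicle genes summed to 209, 4471 and 10820 FPKM and the 5 fibroblast genes to 1872, 1005 and 270 FPKM. The library with the highest hair follicle sum and the lowest fibroblast sum had the lowest level of all 9 members in this group. The library with the lowest hair follicle sum had the highest level of 8, with Cd8a as the exception. The part of tissue makeup in the CD3 values was not tested.

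WT day 7 replicate 1 was the other low library, with a CD3 sum of 2.39 FPKM against 5.74 FPKM in both of the other replicates. In this group the low CD3 library had the lowest hair follicle sum, 1584 FPKM against 3695 and 3487 FPKM, the opposite order to Cthrc1-/- day 0. There the 6 neutrophil genes summed to 5013 FPKM, against 739 and 38.4 FPKM. Ptprc, the leukocyte antigen CD45, was 6.99 FPKM there against 0.954 and 0.522 FPKM. In contrast to the CD3 chains, Lck (2.21 FPKM) and Foxp3 (0.392 FPKM) of this library lay inside the range of the other day 7 replicates. The part of its leukocyte makeup in the results was not tested.

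Leaving out both WT day 7 replicate 1 and Cthrc1-/- day 0 replicate 3, a choice made after seeing the data, gave 2 called members in WT, Cd4 (log2 change 1.64, adjusted p = 0.0353) and Foxp3, and 1 in Cthrc1-/-, Cd4 (1.85, adjusted p = 0.0424). The log2 changes of Cd3d and Cd3g in Cthrc1-/- between days became -0.39 and -0.28 in that fit, neither called. No genotype difference of a member was called in that fit.

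Ratios within a library set the members against the CD3 chains, and were given as descriptions without a test. Cd4 divided by the CD3 sum was 0.167, 0.117 and 0.0735 in WT day 0 and 0.388, 0.411 and 0.294 in WT day 7. In Cthrc1-/- the ratio was 0.0901, 0.109 and 0.195 on day 0 and 0.475, 0.626 and 0.255 on day 7. All 6 day 7 libraries lay above all 6 day 0 libraries. Foxp3 divided by the CD3 sum was at most 0.0207 in WT day 0 and at least 0.0343 in WT day 7, while in Cthrc1-/- the days overlapped (0.0163 to 0.0635 and 0.0336 to 0.0729).

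Foxp3 divided by Cd4 was 0.0288 to 0.124 in WT day 0 and 0.117 to 0.423 in WT day 7, which overlapped. In Cthrc1-/- it was 0.181 to 0.326 on day 0 and 0.103 to 0.132 on day 7, with no overlap. Cd247 divided by the CD3 sum kept to a narrow range, 0.157 to 0.288 over all 12 libraries. Cd8a divided by Cd4 was between 0.0441 and 0.313, so that in every library Cd4 was the more abundant coreceptor transcript by FPKM.

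**Figure D3:**
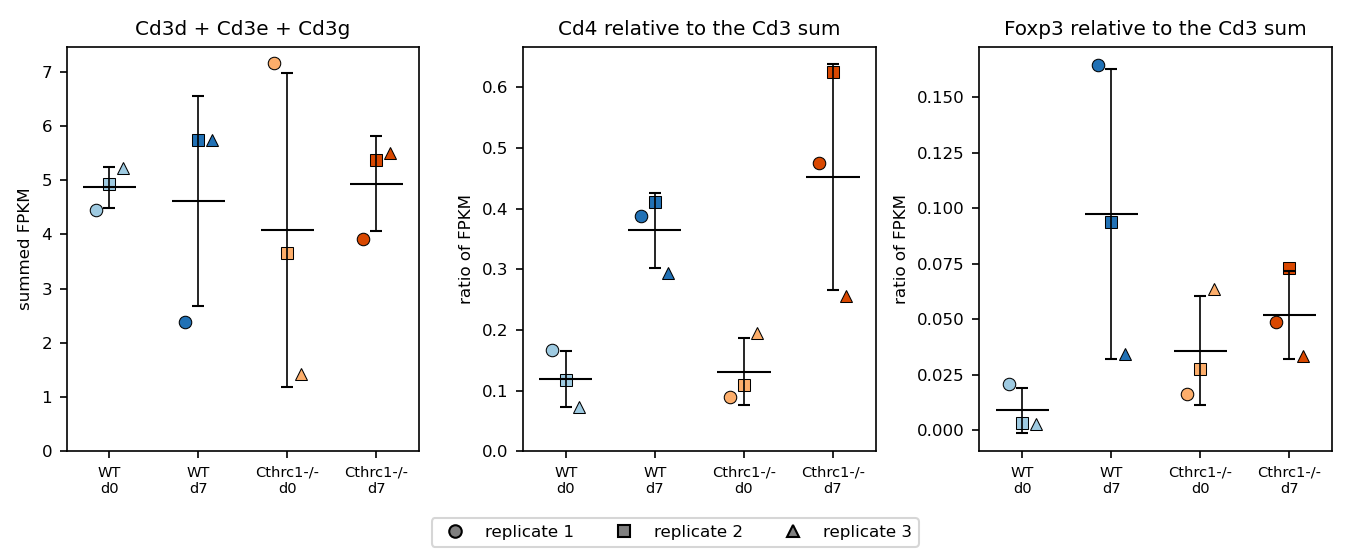
Summed FPKM of Cd3d, Cd3e and Cd3g (left), and the ratio of Cd4 (middle) and of Foxp3 (right) to that sum in each library (y axes, linear), by genotype and day (x axis), with mean and SD bars (n = 3). The Cd4 ratio lies at or under 0.195 in all day 0 libraries and at or above 0.255 in all day 7 libraries, while the CD3 sum spans 1.42 to 7.16 FPKM within Cthrc1-/- day 0.

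All members but Cd2 could be put into sets that rose and fell together over the 12 libraries. The sets were read from these same correlations. The libraries share groups, tissue and scaling, so that correlations are descriptions only. Among Cd3d, Cd3e, Cd3g and Cd247, Pearson's r of log2(FPKM + 0.1) was between 0.77 and 0.97 over 6 pairs (Spearman's rho 0.52 to 0.90). Among Cd4, Cd8a, Lck and Foxp3 it was between 0.59 and 0.78 over 6 pairs (rho 0.51 to 0.85). Between these 4 and the first 4 it ran from -0.049 to 0.55 over 16 pairs (rho -0.15 to 0.62). The sets, chosen without Cd2, were thus apart by r but overlapped by rho. Cd2 lay between them, with r of 0.47 to 0.65 with the first 4 and 0.19 to 0.42 with Cd4, Cd8a, Lck and Foxp3. Foxp3 was nearly unrelated to the CD3 and zeta chains, with r from -0.049 to 0.26, and was closest to Cd4 (0.78) and Lck (0.77).

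**Figure D4:**
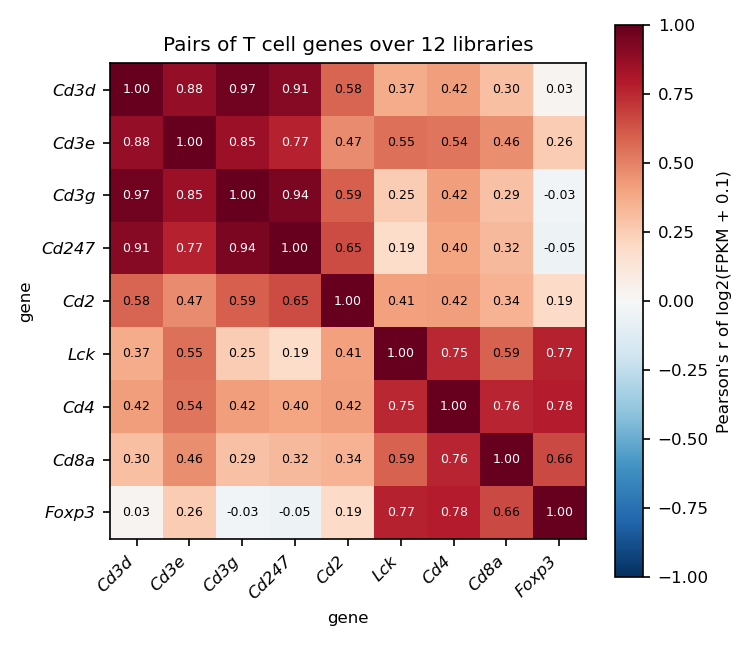
Pearson's r of log2(FPKM + 0.1) for each pair of T cell genes over the 12 libraries (both axes list the genes, the colour scale runs from -1 to 1). The block of Cd3d, Cd3e, Cd3g and Cd247 has r of 0.77 or more, and Foxp3 has r of 0.66 or more with Lck, Cd4 and Cd8a and of 0.26 or less with the other 5 genes.

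Of the genes outside the T cell lists with a mean of at least 1 FPKM (14279 in all), the 8 most like the mean pattern of the 9 members were Cryz, Tbc1d20, Slc25a48, Msrb3, Cacna1g, Rgs10, Hspb2 and Zfp629. Their Pearson's r with the members' mean z-score over the 12 libraries was 0.93 for Cryz, an NADPH-dependent quinone reductase, and 0.91 for Rgs10, a regulator of G protein signalling found in leukocytes. For Zfp629, the eighth, it was 0.89. The mean z-score was lowest in Cthrc1-/- day 0 replicate 3 (-1.69) and highest in Cthrc1-/- day 7 replicate 2 (1.05).

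A further 71 T cell genes in 6 lists were read beside the members, 69 of which passed the count filter. Between days in WT, 4 were called higher and 2 lower by edgeR, a share of the 69 close to the 8.88% called over all genes tested. DESeq2 called 11 higher and 6 lower, beside 4344 called over all genes. Leaving out 1 library gave from 0 higher and 1 lower, without any 1 of WT day 0 replicates 1 and 2, WT day 7 replicates 1 and 2 and Cthrc1-/- day 7 replicate 1, to 8 and 4 without Cthrc1-/- day 0 replicate 3. Of these 6, 5 are described here. The median log2 change over the 69 was -0.074, with 33 positive and 36 negative, beside 0.0039 over all genes tested.

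Ctla4, the checkpoint receptor carried at high level by regulatory T cells, was 0.320, 0.338 and 0.251 FPKM in WT day 0 and 1.79, 2.55 and 1.61 FPKM in WT day 7 (log2 change 2.52 ± 0.65 SE, edgeR adjusted p = 0.0385). Gzmb, the protease granzyme B of cytotoxic T and natural killer cells, was 0.327, 0.153 and 0.192 FPKM and then 2.46, 1.84 and 0.855 FPKM (2.79 ± 0.67, adjusted p = 0.0304). Runx3, a factor of the CD8 lineage that other skin cells also use, was 0.841, 0.688 and 0.799 FPKM and then 4.46, 2.93 and 1.13 FPKM (1.75 ± 0.44, adjusted p = 0.0357). In each of these 3 genes the days did not overlap, and 25.2% of all genes tested were separated upward in this way. Cd6, a surface receptor that tunes T cell receptor signalling, was at most 0.0405 FPKM in WT day 0 and at least 0.143 FPKM in WT day 7 (2.33 ± 0.63, adjusted p = 0.0451).

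Tnfrsf18, the receptor GITR of activated and regulatory T cells, fell, from 20.8, 22.7 and 19.7 FPKM to 8.30, 8.94 and 15.1 FPKM (log2 change -1.15 ± 0.29 SE, edgeR adjusted p = 0.0379). Leaving out 1 library at a time, Gzmb lost its call in 6 of 12 fits, Runx3 and Tnfrsf18 in 8, and Ctla4 and Cd6 in 9. The adjusted p reached 0.139 for Cd6, and leaving out any WT day 0 library ended the call of all 5. Without WT day 0 replicates 1, 2 and 3 in turn, calls over all genes were 717, 534 and 486, against 1895.

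The same 5 genes in Cthrc1-/- gave log2 changes between days of 0.045 for Ctla4, 1.45 for Gzmb, 0.93 for Runx3, 1.39 for Cd6 and -0.82 for Tnfrsf18. None of the 69 genes was called there by edgeR or DESeq2. In edgeR 9 were under an unadjusted p of 0.05, beside 3441 of all 21338 genes. Limma called 1 on log2(FPKM + 1) and 2 on log2(FPKM + 0.1), beside 691 and 828 over all genes. Without both WT day 7 replicate 1 and Cthrc1-/- day 0 replicate 3, edgeR called 1 higher and 3 lower, beside 1600 over all genes. The 3 with the smallest p were Cxcr3, a chemokine receptor of type 1 T cells (1.65 ± 0.58, adjusted p = 0.189), Tnfrsf18 (-0.82 ± 0.29, adjusted p = 0.192) and Tcrg-V5 (-1.42 ± 0.55, adjusted p = 0.235). Ctla4 was 1.58, 1.06 and 0.165 FPKM in Cthrc1-/- day 0 and 0.806, 1.23 and 1.32 FPKM in Cthrc1-/- day 7, which overlapped.

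**Figure D5:**
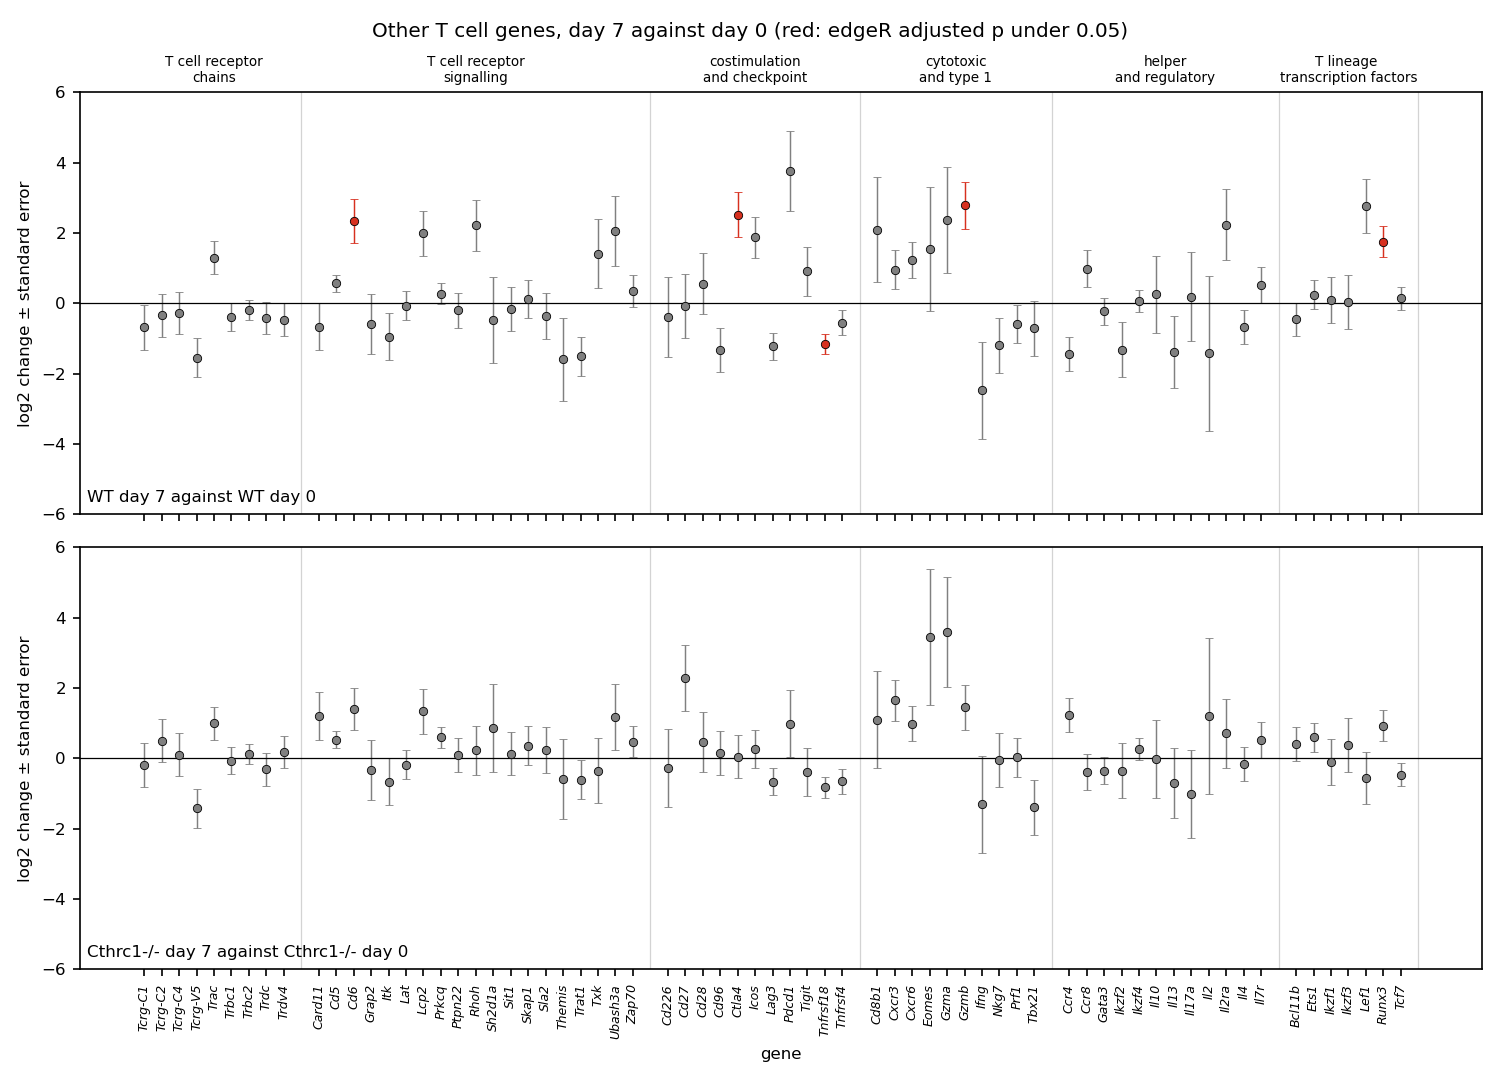
log2 change (y axis, edgeR, with standard error bars) of further T cell genes that passed the count filter, grouped by list along the x axis, in WT (top) and Cthrc1-/- (bottom) day 7 against day 0. The 5 red points in WT are Cd6, Ctla4, Tnfrsf18, Gzmb and Runx3, and no point in the lower panel is red.

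The receptor chains themselves were chosen for description after their values were seen. Trac, the constant segment of the alpha chain, was 0.932, 1.05 and 1.10 FPKM in WT day 0 and 2.62, 3.24 and 2.80 FPKM in WT day 7. In Cthrc1-/- Trac was 0.875, 1.94 and 0.401 FPKM on day 0 and 2.17, 2.46 and 2.74 FPKM on day 7. The days did not overlap in either genotype, where 25.2% of all genes tested were separated upward in WT and 20.5% in Cthrc1-/-. EdgeR called neither change of Trac (log2 change 1.295 and 0.99, adjusted p = 0.102 and 0.324). Trbc2, the most abundant of the beta constant segments, was between 15.3 and 40.8 FPKM over all libraries, with overlapping days.

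Tcrg-V5, a gamma variable segment used by the dendritic T cells of mouse epidermis, was 3.60, 5.27 and 3.11 FPKM in WT day 0 and 0.722, 1.32 and 2.56 FPKM in WT day 7. In Cthrc1-/- Tcrg-V5 was 5.38, 2.57 and 1.81 FPKM on day 0 and 1.77, 1.50 and 0.803 FPKM on day 7. Every day 7 library held less than every day 0 library of its genotype, without a call by edgeR (log2 change -1.55 in WT, adjusted p = 0.0998). The share of all genes separated downward in this way is not given here. The 5 keratinocyte genes, in the same order of replicates, summed to 8225, 7459 and 7732 FPKM in WT day 0, 2238, 5947 and 9225 FPKM in WT day 7, 8160, 7372 and 3810 FPKM in Cthrc1-/- day 0 and 7549, 7398 and 6958 FPKM in Cthrc1-/- day 7. Within WT day 7 and within each Cthrc1-/- group, Tcrg-V5 had the same order as these sums, and the part of epidermal content in its values was not tested. Trdc, the delta constant segment, was 3.13 to 3.48 FPKM in WT day 0, 2.59 to 2.91 FPKM in WT day 7 and as low as 0.689 FPKM in Cthrc1-/- day 0 replicate 3. Of the 9 receptor chain genes 1 had a positive log2 change between days in WT and 8 a negative one, and none was called by edgeR, with 2 under an unadjusted p of 0.05. In Cthrc1-/- 5 were positive and 4 negative, with a median of 0.11, none called and 1 under an unadjusted p of 0.05. Of all 21338 genes, 6053 were under an unadjusted p of 0.05 between days in WT and 3441 in Cthrc1-/-.

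Between genotypes, Ccr4, a chemokine receptor of skin-homing T cells, was the 1 further gene called by edgeR on day 0, as lower in Cthrc1-/- (log2 change -2.57 ± 0.50 SE, edgeR adjusted p = 0.0367), beside 2.42% called over all genes tested. DESeq2 called 4 of the 69 higher and 3 lower, beside 3187 called over all genes. Ccr4 was 0.716, 0.365 and 0.385 FPKM in Cthrc1-/- and 2.48, 3.36 and 2.56 FPKM in WT. The call of Ccr4 was lost in 7 of the 12 fits that left out 1 library, each WT day 0 library among them, with an adjusted p of up to 0.115. Without WT day 0 replicates 1, 2 and 3 in turn, calls over all genes were 21, 9 and 20, against 517. Without Cthrc1-/- day 0 replicate 3, 2 others of the 69 were called, both higher, and leaving out 1 library gave 0 to 2 higher and 0 to 2 lower. The median log2 change over the 69 was -0.056 on day 0, beside -0.065 over all genes tested, and the medians of the 6 lists ran from -0.60 for the cytotoxic and type 1 genes to 0.28 for the costimulation and checkpoint genes.

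On day 7 none of the 69 was called between genotypes by edgeR, DESeq2 or limma. In edgeR 2 were under an unadjusted p of 0.05, beside 1086 of all 21338 genes. The 2 smallest p values were those of Cd5, an inhibitory coreceptor (log2 change 0.78 ± 0.24 SE, adjusted p = 0.973), and Rhoh, an adaptor of receptor signalling (-1.997 ± 0.71, adjusted p = 0.973). Rhoh was 1.91 FPKM in WT day 7 replicate 1 and at most 0.356 FPKM in the other 11 libraries.

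For the interaction, none of the 69 was called by edgeR or limma. In edgeR 4 were under an unadjusted p of 0.05, beside 2846 of all 21338 genes. DESeq2 called 3, beside 745 over all genes. Among these 3 were Ccr4 (log2 term 2.66 ± 0.68 SE, edgeR adjusted p = 0.222) and Lef1 (-3.33 ± 1.06, adjusted p = 0.269). Lef1, a T lineage factor that hair follicle cells also express, was 0.519 to 0.696 FPKM in WT day 0 and 1.25, 3.79 and 13.5 FPKM in the Cthrc1-/- day 0 replicates, in the order in which their hair follicle genes rose.

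Natural killer cells share Lck, Cd2, Cd247 and Gzmb with T cells. Ncr1, their defining receptor, was at 0 in all 6 day 0 libraries, 0.136 to 0.255 FPKM in WT day 7 and 0.207 to 0.539 FPKM in Cthrc1-/- day 7. The 5 natural killer genes summed to 1.10 to 1.82 FPKM in WT day 0, 2.08 to 3.36 FPKM in WT day 7, 0.704 to 3.07 FPKM in Cthrc1-/- day 0 and 2.37 to 3.69 FPKM in Cthrc1-/- day 7. Of these 5 genes 1, Ncr1, was called by edgeR in each genotype between days, beside 8.88% of all genes tested in WT and 1.27% in Cthrc1-/-. Its day 7 counts were low, 15 to 30 in WT and 22 to 66 in Cthrc1-/-. Of the 5 genes, 4 had a positive log2 change in each genotype. The log2 changes of Cd247 and Cd2 were -0.68 and -0.29 in WT and 0.18 and -0.022 in Cthrc1-/-, and those of Lck were 0.59 and 0.32, none of them called. Their part in Lck, Cd2, Cd247 and Gzmb was not tested.

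Dendritic cells can carry Cd4 or Cd8a, and their markers did not move as 1 group. The 7 genes summed to 36.1 to 38.2 FPKM in WT day 0 and 13.7 to 22.3 FPKM in WT day 7, and to 6.85 to 49.8 and 15.1 to 17.9 FPKM in Cthrc1-/-. None of the 7 was called by edgeR in either genotype, with 2 under an unadjusted p of 0.05 in each. The counts over all 21338 genes were 6053 in WT and 3441 in Cthrc1-/-. In WT Cd207 and Cd209a had log2 changes of -1.91 and -1.11, while Itgax, Flt3 and Zbtb46 had 0.67, 0.70 and 0.66. The days did not overlap for these 5. Itgax, Flt3 and Zbtb46 were separated upward, as were 25.2% of all genes tested in WT. Cd207 and Cd209a were separated downward, and the share of all genes in that direction is not given here. Of the 7, 3 were positive in WT (median -0.026) and 4 in Cthrc1-/- (median 0.50). The 7 macrophage genes summed to 311 to 327 FPKM in WT day 0 and 367 to 1320 FPKM in WT day 7. In Cthrc1-/- they summed to 93.6 to 236 FPKM on day 0 and 478 to 526 FPKM on day 7. The 5 genes of all leukocytes summed to 58.3 to 82.4 FPKM in WT day 0 and 109 to 311 FPKM in WT day 7. In Cthrc1-/- these were 36.9 to 111 FPKM on day 0 and 120 to 169 FPKM on day 7. The part of dendritic cells, macrophages or other leukocytes in the Cd4 and Cd8a values was not tested.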

How the data were processed

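Poly(A) RNA from dermis was made into paired-end libraries by the dUTP method, per the labels' protocols. The submitters' processing notes name cutadapt 1.9, HISAT2 2.0.4, UMI-tools, StringTie 1.3.4d, DESeq2 and edgeR with the GRCm38 build, without saying which made the table, whether counting used strand or whether counts were collapsed on molecular identifiers. The authors deposited 1 table with a whole-number count and an FPKM value per gene and sample. A deposited count of 0 carries an FPKM of 0.0001, read here as 0. Counts at multiples of 4 were overrepresented (3.16 to 4.05 times as many genes at 4 as the mean of those at 3 and 5), so counts divided by 4 were an alternative.

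Gene IDs were matched to GENCODE M21, which named 55141 of 55401. Counts were tested with edgeR 4.0.16 in R 4.3.3 (glmQLFit and glmQLFTest, two-sided, TMM), with all 12 samples in 1 fit and a mean per group, over 21338 genes with a mean count of at least 10. All 9 members passed that filter, which used the mean over all samples. Adjustment for multiple testing followed Benjamini and Hochberg. SE was derived from each log2 change and its F statistic, as the size of the change over the root of F. Alternatives were DESeq2 1.42.0, limma 3.58.1 on log2(FPKM + 1) and log2(FPKM + 0.1), RLE and total-count scaling, other filters, only the groups compared, a replicate block and leaving out libraries. The fits were tested on simulated data. Groups and replicate numbers came from the sample titles. The members and lists were chosen with earlier results of these data known. Of the 71 further T cell genes, the called ones in a comparison were named, at most the 6 with the smallest p, or else the 3 with the smallest p. 1 gene that this rule named is not reported here. Genes most like the members were the 8 outside the T cell lists with the highest Pearson's r, over 12 samples, with the members' mean z-score of log2(FPKM + 0.1), at a mean FPKM of at least 1.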

Additional observations from a re-analysis of the deposited data

How the results depend on the processing

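Over 23 alternatives, the 45 log2 changes of the members gave 1006 values, of which 934 had the direction and call reported, 5 lost a call, 8 gained one and 59 had the opposite sign, none of these called. The call of Foxp3 in WT was lost in 5 of 22 alternatives, with an adjusted p of 0.000251 to 0.104, and Foxp3 was not tested with a mean FPKM of at least 1, a filter that 5 members passed. For the 16 named changes of the further T cell genes 59 of 360 values lost a call, 4 gained one and none changed sign. The cause of these changes was not tested.

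Members called between days in WT were 2 with DESeq2 and without both WT day 7 replicate 1 and Cthrc1-/- day 0 replicate 3 (chosen after seeing the data), and 0 with a mean FPKM of at least 1 or only the groups compared, against 1. In Cthrc1-/- they were 1 with DESeq2, either limma fit, total-count scaling and without both libraries, against 0. Leaving out 1 library at a time gave 0 to 1 in either genotype. Calls over all genes in WT were 4344 with DESeq2, and 486 to 3184 leaving out 1 library. In Cthrc1-/- they were 1757 with DESeq2, 828 and 691 with limma at pseudocounts 0.1 and 1, 159 with no filter, 28 with only the groups compared, 669 with total-count scaling and 1600 without both libraries, and 3 to 928 leaving out 1. Between genotypes on day 0 they were 3187 with DESeq2, 827 at a mean FPKM of at least 1, 275 with no filter, 7 with only the groups compared, and 9 to 2124 leaving out 1. On day 7 they were 79 with DESeq2, 6 with either limma fit, 1 with only the groups compared, and 0 to 4 leaving out 1. For the interaction they were 745 with DESeq2, 3 and 8 with limma at pseudocounts 0.1 and 1, 2 at a mean FPKM of at least 1, and 0 to 103 leaving out 1. Total-count scaling moved the median log2 change of all genes to 0.18 in both comparisons of days.

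Of changes in sign, Cd3e between days in Cthrc1-/- was 0.36 and 0.096 with limma at pseudocounts 0.1 and 1 and 0.15 with total-count scaling, and Cd2 was 0.41, 0.21 and 0.19. With a pseudocount of 0.1 Cd3e was -0.0057 between genotypes on day 0, 0.00099 on day 7 and 0.0066 for the interaction. Without both libraries, Cd3d, Cd3g and Cd247 between days in Cthrc1-/- were -0.39, -0.28 and -0.25, Cd3d on day 0 between genotypes was 0.19, Cd3d, Cd3g and Cd8a on day 7 were -0.16, -0.20 and -0.0013, and the interaction terms of Cd3d, Cd3g, Cd2 and Cd8a were -0.35, -0.20, -0.13 and -0.60. Leaving out 1 library gave ranges across 0. In WT between days they were -0.52 to 0.023 (Cd3d) and -0.095 to 1.65 (Cd8a). In Cthrc1-/- they were -0.39 to 0.83 (Cd3d), -0.53 to 0.68 (Cd3e), -0.28 to 0.78 (Cd3g), -0.24 to 0.92 (Cd247) and -0.43 to 0.71 (Cd2). Between genotypes on day 0 they were -1.07 to 0.15 (Cd3d), -0.52 to 0.68 (Cd3e), -0.55 to 0.60 (Cd2) and -0.33 to 0.85 (Cd8a). On day 7 they were -0.16 to 0.28 (Cd3d), -0.53 to 0.086 (Cd3e), -0.20 to 0.24 (Cd3g), -0.081 to 0.68 (Cd4), -0.66 to 1.57 (Cd8a) and -0.036 to 0.25 (Lck). For the interaction they were -0.065 to 1.16 (Cd3d), -0.85 to 0.36 (Cd3e), -0.14 to 1.002 (Cd2) and -0.89 to 1.33 (Cd8a).

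The titles give groups the same replicate numbers, but same-numbered samples did not deviate together in every comparison (correlation across genes 0.011 to 0.042 for WT days, -0.052 to 0.31 for Cthrc1-/- days, -0.013 to 0.041 on day 0 and -0.14 to 0.092 on day 7). In the WT days 6 of 6 samples correlated best with their own number, and 2 of 6 in each other comparison, a hint from the data and not the design. A replicate block left 1 member called in WT and 0 in the other comparisons. Of the 69 further genes the block left 2 higher and 1 lower called in WT and 0 on day 0, and the adjusted p became 0.0659 for Runx3, 0.0708 for Tnfrsf18, 0.0567 for Ctla4, 0.0609 for Cd6 and 0.0558 for Ccr4. All-gene calls with the block were 1325 and 239 between days, 317 and 0 between genotypes on days 0 and 7, and 1 for the interaction, and Cd2 between days in Cthrc1-/- was 0.20.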

Other observations

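Icos and Ccr8 are receptors of activated and regulatory T cells that the naming rule did not reach, and both were picked after their values were seen. Icos was 0.325, 0.344 and 0.440 FPKM in WT day 0 and 1.54, 1.83 and 1.21 FPKM in WT day 7, and 1.87, 1.12 and 0.243 FPKM in Cthrc1-/- day 0 and 1.60, 1.39 and 1.51 FPKM in Cthrc1-/- day 7. Ccr8 was 0.178 to 0.244 FPKM in WT day 0, 0.466 to 0.483 FPKM in WT day 7, 0.293 to 0.731 FPKM in Cthrc1-/- day 0 and 0.280 to 0.813 FPKM in Cthrc1-/- day 7. For both genes the WT days did not overlap and the Cthrc1-/- days did. EdgeR called neither between days in either genotype, and 25.2% of all genes tested were likewise higher in every WT day 7 replicate. Their lists were split between days in WT. Of the costimulation and checkpoint genes 5 were positive and 6 negative, and of the helper and regulatory genes 6 and 7. Il17a, likewise picked outside the naming rule, was 0.374 to 0.536 FPKM in WT day 0. In the Cthrc1-/- day 0 replicates it was 2.79, 0.971 and 0 FPKM. It was not called by edgeR between genotypes on day 0, and its day 7 values are not given here.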
